A study of Mus musculus with 2 samples.

Results

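Genes of killing and of type 1 immunity, namely Gzma, Gzmb, Gzmk, Gzmm, Prf1, Nkg7, Eomes, Tbx21, Ifng and Fasl, were read in single cells of the mediastinal lymph node, the node that drains the lung. They are 10 of the 31053 genes counted in each of the 2 libraries, and they were taken by symbol. Both libraries came from wild-type (WT) C57/B6J mice, in which allergic asthma was induced with ovalbumin (OVA). Per the study's methods the mice, 5 to 13 weeks old, received 50 µg OVA with alum by intraperitoneal injection on days 0 and 7 and OVA by the nose from day 14 to day 16, and the nodes were taken on day 17. The OVA library came from such mice without butyrate and the C4 library from such mice given butyrate, a short-chain fatty acid made by gut bacteria. The route and dose of butyrate for these libraries are not given in the sources used here, and mice without asthma were not analysed here. Cells of 4 mice were pooled in each library, so the mice cannot be told apart and each condition has 1 library. There is therefore no replicate and no test, and the 95% intervals below cover counting error only.

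Cytotoxic lymphocytes kill by releasing granules in which perforin opens the membrane of the target cell and granzymes, a family of serine proteases, enter it. A second route is Fas ligand, which triggers death through the receptor Fas. Natural killer (NK) cells hold this machinery ready, CD8+ T cells build it after activation, and the T-box factors T-bet (Tbx21) and Eomesodermin (Eomes) drive its genes together with interferon-gamma (Ifng), the main type 1 cytokine. Allergic asthma is led by type 2 cytokines such as IL-4 and IL-13, which type 1 factors oppose.

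The members lie on 7 chromosomes of mm10. Gzma (chr13:113093825-113100981, minus strand) and Gzmk (chr13:113171608-113225908, minus strand) share chromosome 13, with 70626 bases between them. Prf1 (chr10:61297833-61304680), Gzmm (chr10:79689020-79695261) and Ifng (chr10:118441046-118445892) share chromosome 10, all on the plus strand. Gzmb is at chr14:56258838-56262260 (minus strand), Nkg7 at chr7:43437073-43438249 (plus strand), Eomes at chr9:118478212-118486132 (plus strand), Tbx21 at chr11:97098071-97115331 (minus strand) and Fasl at chr1:161780689-161788495 (minus strand).

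Because 2 members are T-box factors, the RefSeq promoters of GRCm38.p6 (mm10), each from 250 bases before to 50 bases after a gene's start, were searched for the T-box core GGTGTGA on either strand. All 10 members had a promoter, 11 in all since Gzmm has 2 starts. The RefSeq promoter of Gzmk (chr13:113180916-113181215) lies inside the locus given above (chr13:113171608-113225908), so the sources place the start of Gzmk differently. Of the 2 Gzmm promoters, that with the core (chr10:79693576-79693875) also lies inside its locus, and that at the locus start (chr10:79688770-79689069) had 0 matches. The promoter of Nkg7 (chr7:43436888-43437187) spans the start of its locus (chr7:43437073-43438249), and its match lies inside the locus. Bases below are counted from the RefSeq start. The core was found in 3 of the 11, against 3.98% of all 32851 promoters, and this is a match of letters, not evidence of binding. The stretches around it are shown 5′ to 3′ on the gene's strand, with the core in capitals, at bases −13 to −7 from the start of Nkg7 (chr7:43437115-43437141), −75 to −69 for Gzmk (chr13:113181024-113181050) and −189 to −183 for 1 of the 2 starts of Gzmm (chr10:79693627-79693653).
Nkg7: gggtagggaaGGTGTGAgaagaatcag
Gzmk: tgaaaccttgGGTGTGAaaaatctaac
Gzmm: gcagctcttgGGTGTGAccgcatatgc

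The OVA library holds 9681 cells and 59176459 counted molecules (unique molecular identifiers, UMIs), and the C4 library 8932 cells and 58381292 UMIs. Once dying or near-empty cells and likely doublets had been taken out, 8774 and 8013 cells were kept. Of the kept cells, 22 barcodes occurred in both libraries. Classes were set by UMIs of marker genes, so a cell whose marker was missed falls out of its class. CD8+ cells had UMIs of a Cd3 gene and of Cd8a or Cd8b1, and numbered 1927 without and 1835 with butyrate. CD4+ cells had UMIs of a Cd3 gene and of Cd4, and numbered 1076 and 920. NK-like cells had Ncr1 or Klrb1c and no Cd3e, and numbered only 19 and 31. Cells with Trdc or Tcrg-C1 and a Cd3 gene, the constant genes of the γδ T cell receptor, numbered 213 and 194. The 4 classes together held 36.9% and 37.2% of kept cells, while T cells with neither Cd4 nor Cd8 UMIs (989 and 766) and B cells (4153 and 3892) made up most of the rest.

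Cells of the C4 library held more UMIs, with a median of 7713 against 6484 UMIs per CD8+ cell, 5897.5 against 5212 per CD4+ cell, 6117 against 4656 per NK-like cell and 6048 against 5336 per Trdc or Tcrg-C1 cell. Levels are therefore given as UMIs per 1000000 UMIs of the class (CPM), and shares of cells with a UMI also after each cell was thinned to 2000 UMIs. B cells, which should lack the granule genes, give the background of stray RNA. Their median depth was 4404 and 4608 UMIs, and their summed CPM of the 10 members was 6.55 (95% interval 5.54 to 7.69) without and 9.97 (8.68 to 11.4) with butyrate.

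The labels of the classes were checked on further markers. All 7 NK cell markers checked were present in NK-like cells, where 19 of 19 and 28 of 31 cells had at least 1 of them, with a summed level of 8612.8 CPM without and 6336.2 CPM with butyrate. At least 1 of the 7 was also found in 63.0% and 65.5% of CD8+ cells, at 235 and 202.5 CPM. In myeloid cells the values were 89.7% and 100%, at 3168.5 and 2862 CPM, so 1 such marker alone does not tell an NK cell. Cd3d or Cd3g UMIs were found in 4 of 19 NK-like cells of the OVA library and in 14 of 31 of the C4 library, whose cells also held more UMIs. Among Trdc or Tcrg-C1 cells, 74 of 213 and 82 of 194 had Cd8a or Cd8b1 UMIs, so this class is called by its rule here. The γδ chain and type 17 markers checked were found in 62 and 80 of its cells. In CD4+ cells 4 of the 7 NK cell markers were detected, at a summed 18.4 and 19.7 CPM, with Klre1, Klra4 and Klra8 at 0 in both libraries.

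The 4 granzymes were spread differently over the classes. By level, granzymes A and B were highest in NK-like cells, and granzyme B was found in a few cells of every class. Most UMIs of granzymes K and M lay in CD8+ cells, a far larger class than the NK-like cells. Gzma, which encodes a tryptase abundant in NK cells, reached 5978.5 CPM (95% interval 5502 to 6485) in NK-like cells without and 4700 CPM (4428 to 4985) with butyrate. It was seen in 14 of the 19 and 16 of the 31 NK-like cells, against 0.0963% and 0.308% of B cells. These few cells held 58.4% and 74.3% of all Gzma UMIs in the kept cells of the 2 libraries. The log2 ratio of CPM, C4 over OVA, was −0.35 (−0.49 to −0.20) in NK-like cells, and it turned to 0.13 when cells with Cd3d or Cd3g UMIs were left out of the class.

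In CD8+ cells Gzma stood at 10.2 CPM (8.60 to 12.1) without and 6.0 CPM (4.83 to 7.38) with butyrate. The log2 ratio was −0.77 (−1.17 to −0.38), yet nearly the same share of cells was positive, 2.65% (1.98 to 3.46) against 2.56% (1.89 to 3.39). The lower sum with butyrate was thus one of fewer UMIs in about as many cells. After thinning the shares were 0.832% and 0.763%, and the ratio was −0.29 from 23 and 18 UMIs.

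Gzma in Trdc or Tcrg-C1 cells came from 12 and 8 cells, at 103 CPM (86.7 to 122) and 73.6 CPM (59.7 to 89.7). A single cell held 37.7% of its UMIs without and 63.3% with butyrate. Without the cell with the most UMIs in each library, the log2 ratio moved from −0.49 (−0.88 to −0.10) to −1.23. Among the cells of this class with neither Cd4 nor Cd8 UMIs, Gzma was 135 CPM (107 to 168) from 80 UMIs without and 5.59 CPM (1.15 to 16.3) from 3 UMIs with butyrate. The sum without butyrate came from 6 of 117 such cells, and 1 cell held 52 of the 80 UMIs. The sum with butyrate came from 3 of 93 cells. The other cells of the class went the other way or stood close. Those with Cd8a or Cd8b1 UMIs had 52.5 CPM (35.4 to 75.0) from 5 cells without and 99.8 CPM (77.2 to 127) from 4 cells with butyrate. In the C4 library 1 of these 4 cells, which also had 7 Ncr1 UMIs, held 62 of the 66 Gzma UMIs. Those with Cd4 UMIs had 137.5 and 149 CPM, from 1 cell in each library. The values of these parts thus rest on single cells, and the difference between parts was not tested. In CD4+ cells only 14 and 5 UMIs of Gzma were found.

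Gzmb, which encodes the granzyme that cleaves after aspartate and triggers caspases, was the only member past a 2-fold ratio in any class with at least 50 UMIs. It was lower with butyrate in CD8+ cells, at 3.14 CPM (2.26 to 4.25) without and 1.0 CPM (0.560 to 1.65) with butyrate, a log2 ratio of −1.65 (−2.61 to −0.77). These sums are 42 UMIs in 12 cells and 15 UMIs in 6 cells, and with a pseudocount of 10 CPM the ratio was −0.26. It was also lower in CD4+ cells, at 9.30 CPM (7.02 to 12.1) and 3.43 CPM (2.10 to 5.30), a log2 ratio of −1.44 (−2.25 to −0.68). The number of positive CD4+ cells barely differed, 5 of 1076 and 4 of 920. A single cell held 66.1% of these CD4+ UMIs without and 75.0% with butyrate. With all CD4+ cells thinned to 2000 UMIs, 5 UMIs were left in each library and the ratio was 0.23. It was −0.62, short of 2-fold, when no cell was left out for B cell or myeloid markers, and −0.52 with the pseudocount.

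In NK-like cells the direction was the opposite. Gzmb stood at 226 CPM (142 to 343) without and 487 CPM (402 to 585) with butyrate, a log2 ratio of 1.11 (0.44 to 1.84). A single cell of 29252 UMIs held 65 of the 115 Gzmb UMIs with butyrate, and without the top cell of each library the ratio was 0.79, short of 2-fold, as it was without cells that had Cd3d or Cd3g (0.84). The positive share was 4 of 19 and 7 of 31 cells.

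**Figure D1:**
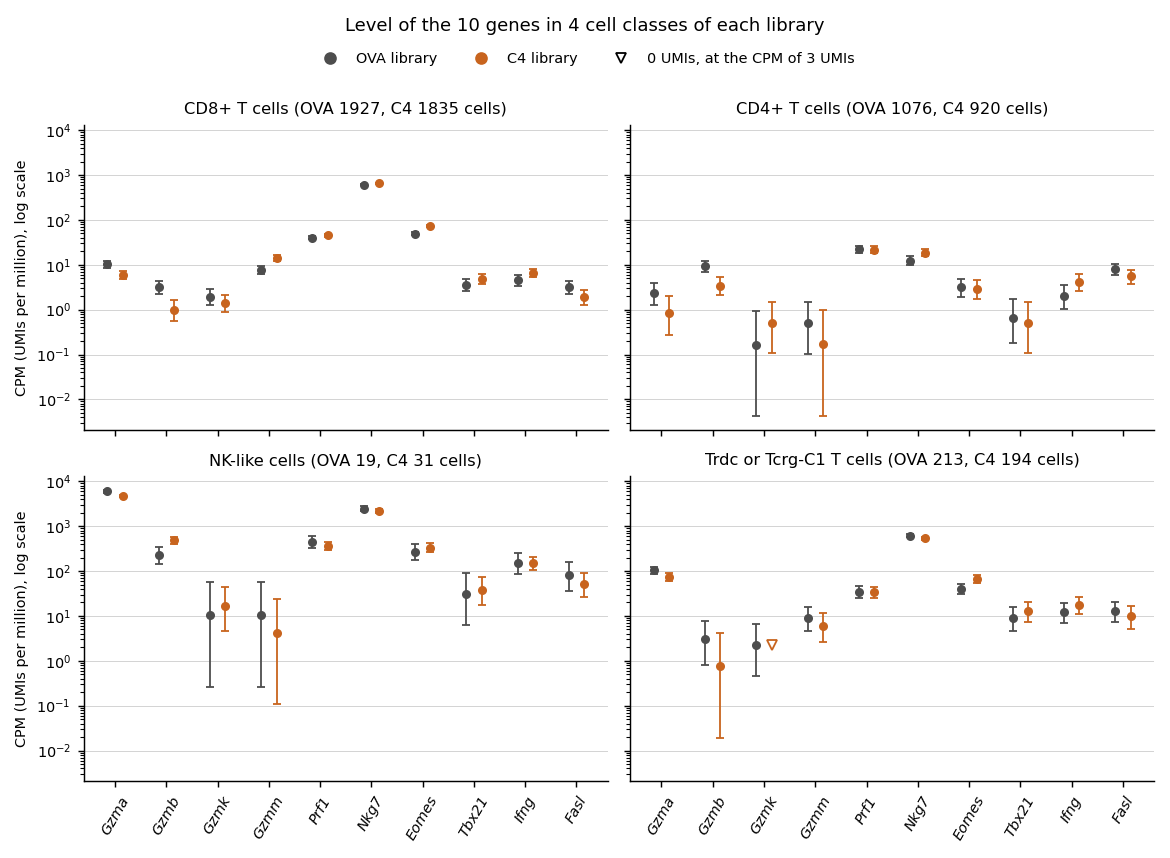
Level of each of the 10 genes (CPM, log scale) in CD8+ T cells, CD4+ T cells, NK-like cells and Trdc or Tcrg-C1 T cells of the OVA (grey) and C4 (orange) libraries, with exact Poisson 95% intervals and an open triangle where a class held 0 UMIs. Gzma in NK-like cells stands at 5978.5 and 4700 CPM against 10.2 and 6.0 CPM in CD8+ cells.

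Where Gzmb was found in T cells outside the CD8+ and the Trdc or Tcrg-C1 classes, it lay largely with Foxp3, the factor of regulatory T cells, a population in which granzyme B is known as one of the suppressive tools. Without butyrate, 9 of 16 such Gzmb-positive cells had a Foxp3 UMI, and they held 125 of 142 Gzmb UMIs (88.0%). With butyrate, 4 of 7 had a Foxp3 UMI, with 21 of 44 UMIs (47.7%). Of the other 23 UMIs, 20 lay in 1 cell that also had 60 Gzma and 6 Ncr1 UMIs, and without cells that had Ncr1, an NK cell receptor, the Foxp3 share was 91.2% (125 of 137) without and 95.5% (21 of 22) with butyrate. Cells with a Foxp3 UMI numbered 184 and 168 here, at a median depth of 4478 and 4936 UMIs, and their Gzmb level was 113 CPM (93.9 to 134) without and 20.2 CPM (12.5 to 30.9) with butyrate. In the 2013 and 1640 cells without a Foxp3 UMI it was 1.58 CPM (0.920 to 2.53) and 2.31 CPM (1.47 to 3.47). Without cells that had Ncr1, the values of the Foxp3-negative cells were 1.12 CPM (0.577 to 1.95) from 12 UMIs and 0.101 CPM (0.00255 to 0.562) from 1 UMI. Gzmb in cells with Foxp3 rested on 9 and 4 positive cells. Some of these cells were cycling, and among Foxp3 cells without Mki67 or Top2a UMIs Gzmb was 80.5 CPM (61.7 to 103) from 5 cells and 21.8 CPM (13.1 to 34.0) from 3 cells. The highest cell without butyrate had 40 Gzmb UMIs with 3 of Foxp3, and the next, which also had 17 Mki67 UMIs, had 37 with 4 of Foxp3.

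**Figure D2:**
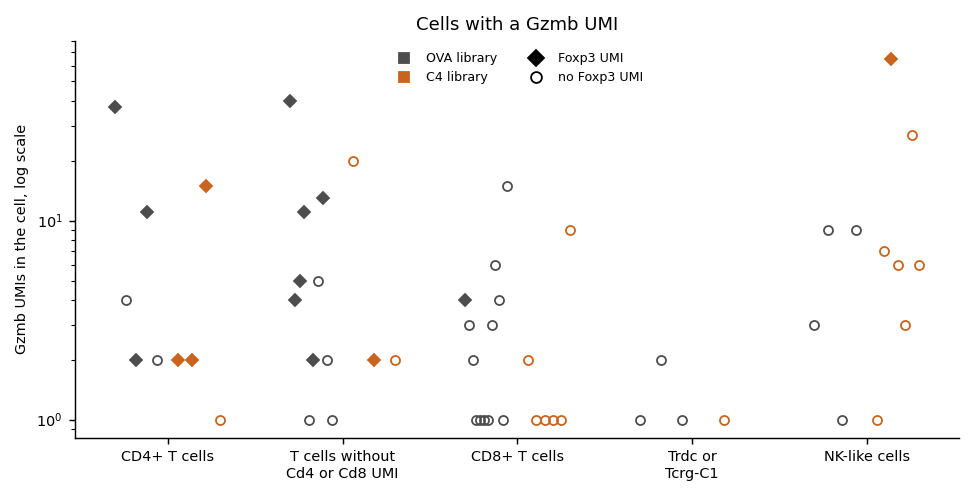
Gzmb UMIs in each cell that had any (log scale), by class, in the OVA (grey) and C4 (orange) libraries, with filled diamonds for cells with a Foxp3 UMI. Most CD4+ cells and T cells without Cd4 or Cd8 UMI that are high in Gzmb are diamonds, while those of the CD8+ class are nearly all open circles.

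Other members were read in the same T cells. Nkg7 stood higher in Foxp3 cells without butyrate, at 86.7 CPM (70.2 to 106) against 43.0 CPM (39.2 to 47.1) in cells without Foxp3, but not with butyrate, at 35.6 CPM (25.1 to 49.1) against 44.2 CPM (40.1 to 48.5). A single Foxp3 cell of the OVA library held 45 Nkg7 UMIs, and the level without that cell was not computed. The higher value is therefore not shown to be one of Foxp3 cells at large. Gzma UMIs in Foxp3 cells were 5 of 103 without and 0 of 95 with butyrate, and Ifng UMIs 1 of 27 and 1 of 54. Prf1 was lower in Foxp3 cells, with 1.81 CPM (0.219 to 6.52) against 21.8 CPM (19.1 to 24.7) in the cells without Foxp3 in the OVA library. In the C4 library the same values were 7.70 CPM (3.32 to 15.2) and 21.3 CPM (18.6 to 24.4).

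Gzmk, which encodes a granzyme of memory CD8+ cells, was the rarest member. It had 26 UMIs in 7 CD8+ cells without and 21 UMIs in 3 CD8+ cells with butyrate, with 12 and 15 of them in a single cell. The CD8+ level was 1.94 CPM (1.27 to 2.85) and 1.40 CPM (0.867 to 2.14). In NK-like cells Gzmk stood at 10.29 CPM (0.26 to 57.3) from 1 UMI and 16.95 CPM (4.62 to 43.4) from 4 UMIs, in 1 and 2 cells. It had 3 and 0 UMIs in Trdc or Tcrg-C1 cells, where 0 of 194 cells had a UMI, which by the floor of 3 counts leaves room for 1.55% of cells with a UMI and sets no limit on cells that express the gene, and 0 in B cells of either library. At this depth no difference between libraries was detectable for it.

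Gzmm, which encodes a granzyme that cleaves after methionine, was higher with butyrate in CD8+ cells. It stood at 7.78 CPM (6.35 to 9.42) from 104 UMIs without and 14.1 CPM (12.3 to 16.2) from 212 UMIs with butyrate, a log2 ratio of 0.86 (0.52 to 1.21). The positive share was 2.85% (2.16 to 3.70) and 4.36% (3.47 to 5.40) of CD8+ cells. After thinning the Gzmm shares were 1.04% (0.636 to 1.60) and 1.58% (1.06 to 2.26), with overlapping intervals. No single cell held over 7.08% of the UMIs, so that in contrast to Gzmb the sum was spread over 55 and 80 cells. In NK-like cells Gzmm had 1 UMI in each library, and in CD4+ cells 3 and 1.

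Prf1, the gene of perforin, and Nkg7, which encodes a granule membrane protein needed for granule release, had log2 ratios between −0.31 and 0.17 in every class, but for Nkg7 in CD4+ cells (0.61). Nkg7 was seen in 87.7% (86.2 to 89.1) of CD8+ cells without and 91.4% (90.0 to 92.6) with butyrate, and in 61.5% and 65.9% after thinning. Its level in CD8+ cells was 608 CPM (595 to 622) and 652 CPM (639 to 665), a log2 ratio of 0.10 (0.06 to 0.14). It made up most of the members' UMIs in that class, 8132 of 9790 and 9782 of 12077. In NK-like cells Nkg7 stood at 2428.5 CPM (2128.5 to 2759) and 2200 CPM (2014 to 2397), and in Trdc or Tcrg-C1 cells at 614 CPM (572 to 657) and 535 CPM (497 to 576). In CD4+ cells it was 12.3 CPM (9.65 to 15.4) and 18.7 CPM (15.4 to 22.6), a log2 ratio of 0.61 (0.17 to 1.05). That difference shrank to 0.12 when the T cells with neither Cd4 nor Cd8 UMIs were added to the CD4+ cells. Nkg7 was seen in 1.45% and 2.11% of B cells.

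Prf1 was seen in 22.9% (21.0 to 24.8) of CD8+ cells without and 27.8% (25.8 to 30.0) with butyrate, at 39.9 CPM (36.6 to 43.5) and 44.9 CPM (41.6 to 48.5), a log2 ratio of 0.17 (0.00 to 0.34). After thinning the Prf1 shares were 6.92% (5.82 to 8.14) and 8.72% (7.47 to 10.1), with overlapping intervals. Prf1 was also spread over CD4+ cells. It was seen in 10.0% (8.31 to 11.99) of CD4+ cells without and 11.5% (9.53 to 13.8) with butyrate, against 0.843% and 1.18% of B cells. After thinning the CD4+ shares were 4.29% and 4.15%. The CD4+ level was 21.9 CPM (18.3 to 26.0) and 21.8 CPM (18.2 to 25.9), a log2 ratio of −0.01 (−0.37 to 0.36), and the median positive CD4+ cell had 1 UMI. The NK-like level was 453 CPM (329 to 608) and 364 CPM (291 to 450). Trdc or Tcrg-C1 cells had 34.4 CPM (25.2 to 45.9) and 33.8 CPM (24.6 to 45.2).

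Of the 2 T-box factors, Eomes, which marks memory CD8+ cells and NK cells, was higher with butyrate in CD8+ cells. It was seen in 20.8% (19.0 to 22.6) of CD8+ cells without and 29.1% (27.0 to 31.2) with butyrate. After thinning the Eomes shares were 7.64% (6.50 to 8.92) and 9.11% (7.83 to 10.5), with overlapping intervals. The CD8+ level was 49.7 CPM (46.0 to 53.6) from 665 UMIs and 72.3 CPM (68.1 to 76.8) from 1085 UMIs, a log2 ratio of 0.54 (0.40 to 0.68), and 0.31 after thinning. No single cell held over 1.20% of these UMIs. In Trdc or Tcrg-C1 cells Eomes also stood higher with butyrate, at 40.4 CPM (30.3 to 52.7) and 66.1 CPM (53.0 to 81.4), a log2 ratio of 0.71 (0.21 to 1.23). There the positive share was about equal, 35 of 213 and 36 of 194 cells. In NK-like cells it was 268 CPM (175 to 392) and 335 CPM (265 to 417), with overlapping intervals.

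Tbx21, which encodes T-bet, the type 1 master factor, was found in 39 CD8+ cells without and 66 with butyrate, 2.02% (1.44 to 2.76) and 3.60% (2.79 to 4.55). After thinning the Tbx21 shares were 0.468% (0.214 to 0.887) and 0.927% (0.541 to 1.48), with overlapping intervals. The Tbx21 level was 3.59 CPM (2.65 to 4.76) and 4.87 CPM (3.81 to 6.12), a log2 ratio of 0.44 (−0.11 to 0.996) whose interval spans 0. In CD4+ cells it was seen in 0.186% and 0.217% of cells, against 0.409% and 0.642% of B cells, which are known to use T-bet themselves and so give no background for it. Of CD8+ cells with Tbx21, 21 of 39 and 39 of 66 also had Eomes UMIs.

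Ifng had 60 UMIs in 32 CD8+ cells without and 97 UMIs in 39 CD8+ cells with butyrate, at 4.49 CPM (3.42 to 5.78) and 6.47 CPM (5.24 to 7.89). The log2 ratio was 0.53 (0.05 to 1.02), and 1.48 after thinning, on 9 and 24 UMIs. Every CD8+ cell with Ifng also had Nkg7, 32 of 32 and 39 of 39, beside 87.7% and 91.4% of all CD8+ cells. NK-like cells had 154 CPM (86.4 to 255) and 148 CPM (103 to 206), from 6 and 11 cells. CD4+ cells had 12 UMIs in 7 cells and 24 UMIs in 9 cells, shares of 0.651% (0.262 to 1.34) and 0.978% (0.448 to 1.85) against 0.361% and 0.411% of B cells. Ifng was found together with type 2 cytokines in a few cells. Of T cells without B cell or myeloid markers, 59 had Ifng, 40 had Il4 or Il13 and 3 had both without butyrate, and 67, 42 and 3 with butyrate. These counts leave out the group of 168 and 160 cells with a Cd3 gene and such markers, of which 9 and 5 had Ifng. The cell with the most Ifng UMIs, described further below, was in that group.

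Fasl, the gene of Fas ligand, was lower with butyrate in CD8+ cells, at 3.14 CPM (2.26 to 4.25) from 42 UMIs and 1.87 CPM (1.24 to 2.70) from 28 UMIs, a log2 ratio of −0.75 (−1.49 to −0.03). With Gzmb it was 1 of the 2 members for which CD4+ cells stood above CD8+ cells in both libraries, here at 7.97 CPM (5.88 to 10.6) and 5.49 CPM (3.76 to 7.76). Fasl was seen in 3.90% (2.83 to 5.24) and 3.37% (2.30 to 4.75) of CD4+ cells, against 0.0963% and 0.0771% of B cells. The CD4+ ratio of −0.54 (−1.23 to 0.14) has an interval that spans 0. NK-like cells had 8 and 12 UMIs, and Trdc or Tcrg-C1 cells 17 and 13.

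Summed over the 10 members, the libraries were close. CD8+ cells had 732 CPM (718 to 747) without and 805 CPM (791 to 820) with butyrate, a log2 ratio of 0.14 (0.10 to 0.18). CD4+ cells had 60.3 CPM (54.2 to 66.8) and 58.5 CPM (52.5 to 65.1), a ratio of −0.04 (−0.26 to 0.18). NK-like cells had 9642 CPM (9034 to 10280) and 8345 CPM (7981 to 8722), a ratio of −0.21 (−0.32 to −0.09), which was 0.20 without the cells that had Cd3d or Cd3g. Trdc or Tcrg-C1 cells had 840 CPM (791 to 890) and 755 CPM (709 to 803), a ratio of −0.15 (−0.28 to −0.03). The make-up of this class differed, since 26 of 213 and 44 of 194 cells had Tcrg-C1 and no Trdc UMIs. Nkg7 was 475.5 CPM (382 to 584.5) and 294 CPM (237 to 360) in those cells. In the cells with Trdc UMIs it was 636.5 CPM (591 to 684) and 610 CPM (563 to 659.5), with overlapping intervals. The part of this make-up in the ratios of the class was not tested.

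The members were set beside all genes with at least 50 UMIs over both libraries, and Gzmb was the only member past 2-fold. With 9 or fewer members compared in a class, 1 gene is a large share of them. In CD8+ cells 9 members could be compared, of which 0 were higher and 1 (Gzmb) was lower with butyrate past 2-fold, beside 0.188% higher and 0.313% lower of 9585 genes. The median log2 ratio of these 9 was 0.17, and 0.01 for all genes. The medians of the members in the other classes, −0.27, −0.10 and −0.11, are from 4, 6 and 4 members. In CD4+ cells 4 members could be compared, 0 higher and 1 (Gzmb) lower, beside 0.174% and 0.57% of 8600 genes. In NK-like cells 6 could be compared, 1 (Gzmb) higher and 0 lower, beside 2.33% and 2.21% of 858 genes. In Trdc or Tcrg-C1 cells 4 could be compared and 0 lay past 2-fold in either direction, beside 0.654% and 0.557% of 5202 genes.

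**Figure D3:**
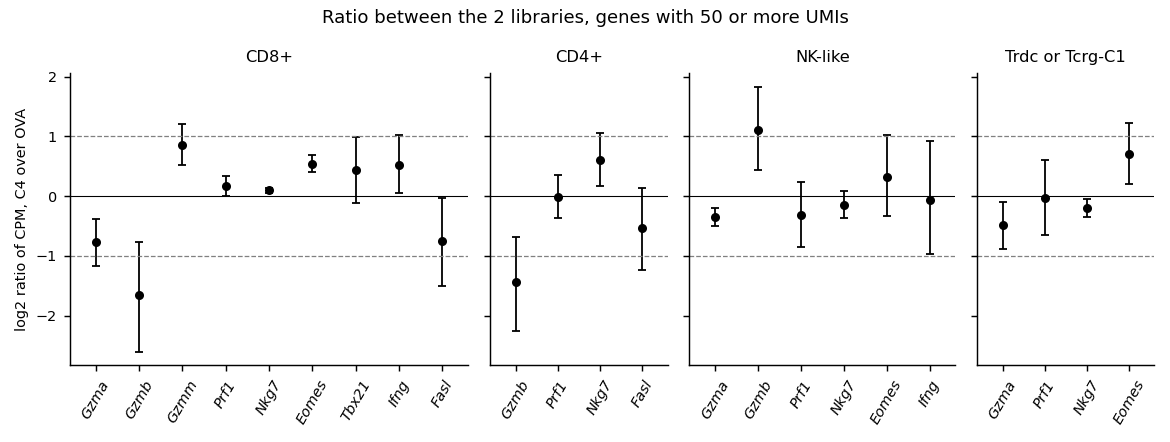
Log2 ratio of CPM, C4 over OVA, of the members with at least 50 UMIs over both libraries in each class, with 95% counting intervals and dashed lines at 2-fold. Gzmb is past 2-fold in 3 classes, lower in CD8+ and CD4+ cells (−1.65 and −1.44) and higher in NK-like cells (1.11).

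The members were found together most often in NK-like cells. At least 4 of the 10 had UMIs in 63.2% of NK-like cells without and 54.8% with butyrate, in 2.75% and 4.52% of CD8+ cells, in 6.10% and 4.12% of Trdc or Tcrg-C1 cells, and in 0 CD4+ cells of either library. In NK-like cells all 4 and all 7 Gzmb-positive cells also had Gzma and Prf1 UMIs. Of all NK-like cells, 14 of 19 and 16 of 31 had Gzma, and 12 of 19 and 22 of 31 had Prf1. In the CD8+ class 2 of 12 and 0 of 6 Gzmb-positive cells had Gzma, and 3 of 12 and 0 of 6 had Prf1. Gzma was rare there, in 2.65% and 2.56% of all CD8+ cells. Among Gzma-positive CD8+ cells, 16 of 51 and 19 of 47 had Prf1, beside 22.9% and 27.8% of all CD8+ cells. Nkg7 was found in 49 and 45 of the Gzma-positive CD8+ cells, beside 87.7% and 91.4% of all CD8+ cells. The share of CD8+ cells with at least 2 members was 37.5% without and 48.0% with butyrate, and the CD8+ cells of the C4 library were also the deeper ones.

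**Figure D4:**
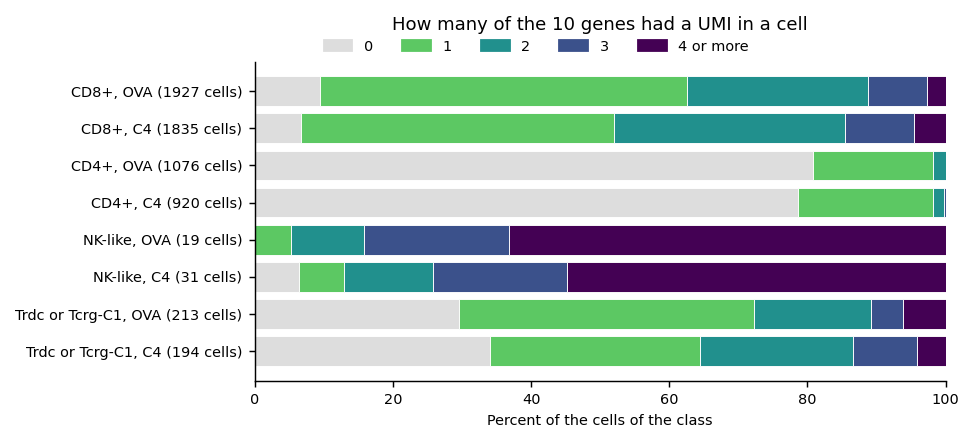
Share of cells of each class and library (percent) by how many of the 10 genes had a UMI in the cell. CD4+ cells mostly had none (80.9% and 78.7%), CD8+ cells mostly 1 or more, and NK-like cells mostly 4 or more (63.2% and 54.8%).

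CD8+ cells with at least 2 members (722 and 880) were set beside CD8+ cells with none (181 and 122), which were shallower, with a median of 4871 and 6045.5 against 7375 and 8702.5 UMIs. The gene other than the members with the highest mean log ratio over both libraries was Ccl5, a chemokine of memory and effector T cells, at 678 against 5.32 CPM without and 436 against 12.9 CPM with butyrate. It was followed by Xcl1 and Ccl4, also chemokines, and by Ctla2a, Samd3, Fosl2, Ly6c2, Cxcr3, Ifitm10 and Il18rap. Ly6c2, a surface marker of memory CD8+ cells, stood at 730.5 against 117 CPM and 644 against 82.8 CPM, and Cxcr3, the receptor that guides type 1 cells, at 41.6 against 6.38 CPM and 47.6 against 6.47 CPM. In CD4+ cells with at least 2 members (only 19 and 16) the leading genes were Lgals3, Klrg1, Cxcr3, S100a6, Ccl5, S100a4, Angptl2, Anxa2, Nrn1 and Ahnak. S100a6, a calcium-binding protein of effector and memory cells, stood there at 1318.5 against 83.4 CPM without and 1963 against 106.5 CPM with butyrate. These cells were picked by the members' own UMIs, so the values describe them and test nothing.

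Other genes of the same biology were read in lists. Of other effector ligands, 7 of 8 had enough UMIs in CD8+ cells, with 3 higher and 0 lower past 2-fold and a median log2 ratio of 0.81. They were the chemokines Ccl3, at 2.45 (1.36 to 3.74), Ccl4, at 2.27 (2.01 to 2.55), and Xcl1, at 1.44 (1.23 to 1.65). As with Gzmb, single cells held much of these sums: with butyrate 1 cell each held 411 of 749 Ccl4 UMIs and 360 of 761 Xcl1 UMIs, and the positive share of Ccl4 was 58 of 1927 and 52 of 1835 cells. CD8+ cells with Ccl4 held 35.6% and 31.6% of the Gzmm UMIs of the class, and 11.7% and 34.0% of its Ifng UMIs. Their shares were 38.1% and 28.6% for Fasl, 20.8% and 20.5% for Tbx21, and 15.3% and 21.1% for Gzma. For Eomes they were 7.97% and 5.71%, for Prf1 7.87% and 6.38%, and for Nkg7 6.22% and 5.70%. Gzmb and Gzmk had 6 or fewer UMIs in these cells. The cells were also deeper, at a median of 9042.5 and 10294.5 UMIs against 6484 and 7713 in the class. In Trdc or Tcrg-C1 cells, 11 of 21 NK and effector surface receptors could be compared, and 0 were above and 11 below a ratio of 0, with 3 lower past 2-fold and a median of −0.69. The 3 were Klrc2, at −1.23 (−1.85 to −0.63), Klra7, at −1.22 (−1.92 to −0.54), and Klrc1, at −1.04 (−1.96 to −0.16), all lectin-like receptors of NK cells. Of all 5202 genes compared in this class, 0.557% were lower past 2-fold. Klrc2 was seen in 29 of 213 and 14 of 194 cells, Klra7 in 13 and 5, and Klrc1 in 16 and 10. With butyrate 1 cell held 48.15% of the Klra7 UMIs. The 7 NK cell markers, which share genes with this receptor list, summed to 488 and 323 CPM in Trdc or Tcrg-C1 cells. They were seen in 98 of 213 and 94 of 194 cells, and their part in the result was not tested. Xcl1 was lower there too, at −1.35 (−1.89 to −0.84), and Unc13d, which primes granules for release, was higher, at 1.504 (0.68 to 2.39), seen in 17 of 213 and 40 of 194 cells.

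In CD4+ cells the ligand Ccl5 was higher, at 1.13 (0.74 to 1.53), with 1 cell holding 45.0% and 47.9% of its UMIs, and the receptor Cd160 was lower, at −1.23 (−2.04 to −0.47). In NK-like cells the receptors Klra9, at 1.66 (0.43 to 3.18), and Cd160, at 1.42 (0.34 to 2.71), were higher, and Klra8, at −1.16 (−1.76 to −0.57), the serpin Serpinb6b, at −1.45 (−1.97 to −0.94), and the quiescence factor Klf2, at −1.14 (−1.43 to −0.84), were lower. Of the 14 NK and effector surface receptors compared there, 4 were above and 10 below a ratio of 0, with a median of −0.295. Klra9 was seen in 4 and 8 NK-like cells. With butyrate 1 cell held 39.1% of its UMIs, and 1 cell held 30 of the 52 Klra8 UMIs. The granule and secretion list gave medians of −0.03, 0.01, 0.07 and 0.03 in CD8+, CD4+, NK-like and Trdc or Tcrg-C1 cells, and the type 1 differentiation list −0.04, 0.09, −0.12 and 0.14, with 0 genes of the latter past 2-fold in any of the 4 classes. For genes of interferon-gamma reception the medians were −0.09, −0.14, −0.67 and −0.05, the third from 2 genes, and for naive T cell genes −0.10, 0.01, −0.15 and 0.08. The medians over all genes were between −0.0003 and 0.02.

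The genes whose levels ran most like a member's were sought over 12 sums, 6 cell groups (the 4 classes, B and myeloid cells) in 2 libraries, by Pearson's r of log2(CPM + 10). With so few groups r is high for any gene that marks NK-like cells, and it is given as a description. Gzma ran with the NK cell receptors Klre1 (r = 0.996), Klra7 (0.996) and Klrc1 (0.994), and Tbx21 and Ifng were closest to Gzma (0.976 and 0.990). Gzmb and Gzmk were closest to Klra9 (0.984 and 0.982). Nkg7 ran with Ctsw (0.983), Hopx (0.974) and Eomes (0.973), and Eomes with Baiap3 (0.983) and Hopx (0.981). Gzmm was closest to Adgrg5 (0.928), Prf1 to Cdca7l (0.980) and Fasl to Rbl2 (0.987).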

How the data were processed

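Cells of mediastinal lymph nodes were captured with the 10x Genomics 3′ kit (v.3). Per the submitters' processing notes, Cell Ranger 6.0.1 and mm10 were used, and the annotation version is not given in the sources used here. The authors deposited raw UMI counts per gene and cell, without normalization, for all cells that Cell Ranger had called. Such counts tag the 3′ end of a transcript, so a CPM counts molecules and is not divided by length, and antisense or overlapping transcripts were not separated here. Total depth was 59176459 and 58381292 UMIs. Samples were grouped by their titles, and 0 columns of other samples were present.

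Mitochondrial UMIs above 10% or fewer than 200 detected genes led to removal of 186 and 327 cells. A further 721 and 592 were taken out as likely doublets, ranked by Scrublet in scanpy 1.11.5. CD8+, CD4+ and NK-like cells, and cells with Trdc or Tcrg-C1, had under 3 UMIs of 4 B cell markers and under 5 of 4 myeloid markers. CD8+ and CD4+ cells had 0 UMIs of the other coreceptor, Trdc and Tcrg-C1. UMIs were summed by class and library. CPM have exact Poisson, shares exact binomial (Clopper-Pearson) and ratios exact binomial intervals at 95%. PCR duplicates are removed by UMIs, and intervals and floors cover counting error only. A count of 0 allows up to 3 counts. No test was made, with 1 library per condition. A gene was compared with at least 50 UMIs and was past the fold at a ratio of 2. Before use, simulated data with known folds served to test the code for ratios. Named genes are the 10 members, up to 5 genes per class of the lists past 2-fold, the 3 genes most like each member, and the 10 genes highest in cells with at least 2 members. For brevity, fewer than 3 are given for some members. Some genes are not reported here. The members and lists were chosen with earlier results of these data known. Loci are from GENCODE M21 and promoters from RefSeq, both on mm10. Alternatives were no doublet removal, at most 5% mitochondrial UMIs, at least 500 genes, no exclusion by B cell or myeloid markers, stricter NK-like and γδ rules, thinning to 2000 UMIs, another scaling, removal of the top cell, a pseudocount of 10 CPM and at least 200 UMIs. The code ran with scipy 1.17.1, pandas 2.3.3 and numpy 2.4.6 under Python 3.11.15.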

Additional observations from a re-analysis of the deposited data

Results flagged for a closer look

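Genes were taken up here when they lay past 2-fold in opposite directions in 2 of the classes, and the difference between classes was not tested. Gzmb was lower with butyrate in CD8+ cells (log2 ratio −1.65) and in CD4+ cells (−1.44), and higher in NK-like cells (1.11). The CD8+ value came from 12 and 6 positive cells, the CD4+ value from 5 and 4, and the NK-like value from 4 and 7. Xcl1, a chemokine of cytotoxic lymphocytes, was higher with butyrate in CD8+ cells (1.44) and lower in Trdc or Tcrg-C1 cells (−1.35). With butyrate 1 CD8+ cell held 47.3% of its Xcl1 UMIs. Cd160, an NK cell and T cell receptor, was lower in CD4+ cells (−1.23) and higher in NK-like cells (1.42), from 17 of 31 cells with and 4 of 19 without butyrate.

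Ifng stood out in the cells that the 4 classes leave out. There its UMIs numbered 52 in the OVA and 506 in the C4 library, and the log2 ratio was 3.37 (2.96 to 3.81), although 34 cells were positive in each library. A single cell of 75016 UMIs held 442 of the 506, and without the top cell of each library the ratio was 0.53. That cell had B cell or myeloid marker UMIs beside 32 Cd3e, 33 Cd4 and 10 Cd8b1 UMIs, and also 1168 Il4, 1085 Il13, 1701 Ccl4, 135 Nkg7, 24 Fasl and 59 Gata3 UMIs. It was kept because its Scrublet score did not rank among the preset number of cells taken out, which is no call of a single cell. Whether it was more than 1 cell was not tested further.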

How the results depend on the processing

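Over 211 alternative values of the 23 member ratios, 191 stayed within the counting interval of the value reported, 19 moved out of it, 18 changed sign and 9 changed their side of the 2-fold line. The called ratio that reversed was that of Gzmb in CD4+ cells, at 0.23 after thinning to 2000 UMIs, where fewer UMIs were left. Of 442 alternative values of 54 levels, the CPM of the members and of their sum, 318 stayed within the counting interval and 124 moved out of it. For the 10 members summed, 33 of 37 ratios stayed within the interval. The NK-like sum moved to −0.043 with no cell left out for B cell or myeloid markers, to 0.20 without cells that had Cd3d or Cd3g, and to −0.39 after thinning, and the Trdc or Tcrg-C1 sum to −0.51 after thinning. The cause was not tested.

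Counts of genes past 2-fold followed the minimum of UMIs. The reported counts, higher and lower, were 18 and 30 in CD8+, 15 and 49 in CD4+, 20 and 19 in NK-like and 34 and 29 in Trdc or Tcrg-C1 cells. With at least 200 UMIs they were 3 and 14, 1 and 10, 0 and 1, and 4 and 1, since fewer genes were compared. With a pseudocount of 10 CPM, which draws low genes to 0, they were 2 and 6, 0 and 4, and, in Trdc or Tcrg-C1 cells, 11 and 13.

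No paired analysis was possible because each condition has 1 library. The addition of T cells without Cd4 or Cd8 UMIs to the CD4+ cells and the removal of cells with Ncr1 from the Foxp3 comparison were chosen after seeing the data. NK-like cells were few, at 19 and 31, so a member there rests on single cells.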

Other observations

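A few cells that look like NK cells by their genes fell outside the NK-like class because of Cd3e UMIs. Cells with Ncr1 and Cd3e UMIs numbered 8 without and 9 with butyrate. Without butyrate 1 of them, with 1 Cd3e and 5 Ncr1 UMIs among 2854, had 76 Gzma and 5 Gzmb UMIs. With butyrate 1 cell with 1 Cd3e and 6 Ncr1 UMIs had 60 Gzma and 20 Gzmb UMIs, which is the highest Gzmb value among T cells of that library without a Cd4 or Cd8 UMI. The 4 classes held from 50.2% (Gzmb) to 96.9% (Gzmk) of a member's UMIs without butyrate, and from 26.1% (Ifng) to 91.7% (Gzmm) with butyrate.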
